A study of Mus musculus with 2 samples.

Results

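T-box and limb identity factors were described in mouse embryonic fibroblasts (MEFs) with and without p65, the NF-kB subunit encoded by Rela. The genes were a given list of 9: the T-box genes Tbx2, Tbx3, Tbx4, Tbx5, Tbx15 and Tbx18, and Pitx1, Hand2 and Shox2. Matching RefSeq transcripts to symbols found 8 of them among the 16881 transcripts, and Pitx1 is not analysed here. Total RNA was sequenced from 1 library of immortalised p65+/+ MEFs and 1 library of immortalised p65-/- MEFs, both from the C57BL/6 strain. The labels name no stimulus, embryo age, sex, passage or number of clones behind either culture. The p65+/+ library held 20794476 fragments and the p65-/- library 15441394. With 1 library per genotype there is no replicate error and no test. The intervals are exact 95% counting intervals within these 2 libraries, so differences of genotype and of culture cannot be told apart. The members were chosen by their values in this contrast, the p65-/- against the p65+/+ column, and their ratios are therefore a description.

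T-box proteins are transcription factors that share a DNA-binding domain, and many of them act in limb and heart formation. In the embryo, Tbx5 marks and helps to start the forelimb field, Tbx4 marks the hindlimb field, and the homeobox factor Pitx1 acts upstream of Tbx4 in the hindlimb. Tbx2 and Tbx3 are mostly repressors and pattern the limb margins, Tbx15 and Tbx18 are related factors of limb and trunk mesenchyme, the basic helix-loop-helix factor Hand2 acts upstream of Shh in the posterior limb bud, and the homeobox factor Shox2 shapes the proximal limb skeleton. Cultured fibroblasts are known to keep part of the positional gene expression of the body site they came from.

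The members fell into a group at like levels in both libraries and a group seen almost only in the p65-/- library. Tbx15, Shox2, Tbx3 and Tbx18 lay within 2-fold, with log2 ratios (p65-/- over p65+/+) of -0.01, 0.01, -0.44 and 0.55. Tbx5 and Hand2 had 0 fragments in the p65+/+ library. Set to a floor of 3 fragments there, they were 120-fold and 17.7-fold higher in the p65-/- library. The lower ends of their counting intervals were 97.2-fold and 13.7-fold. Tbx2 was 7.42-fold higher, from few fragments, and Tbx4 was at or near 0 in both libraries. Of the 6 members with a mean of at least 1 CPM (fragment counts scaled to library size, then normalised between libraries), 2 were higher by 2-fold or more and 0 lower, where the share over all 12135 genes measured by that minimum was 12.2% higher and 13.7% lower. Both of the 2 passed the minimum through the p65-/- library alone, so their count says nothing beyond their levels.

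**Figure D1:**
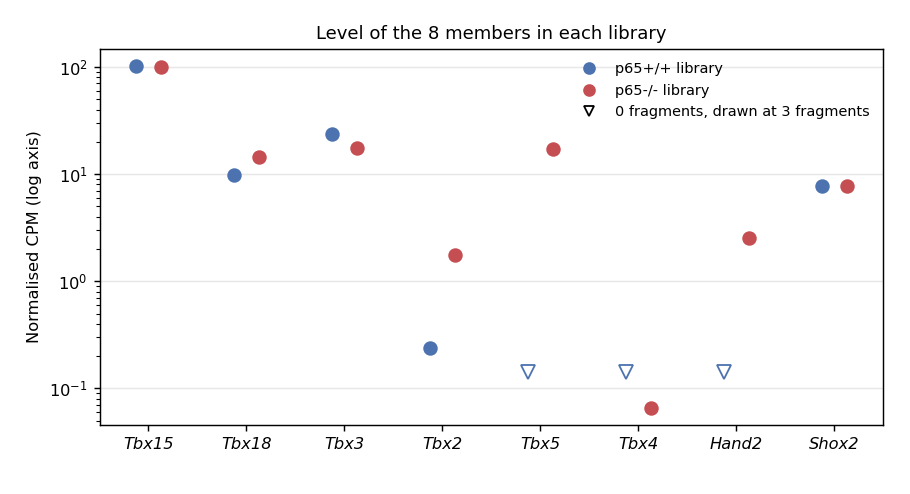
Normalised CPM (log axis) of the 8 members in the p65+/+ (blue) and p65-/- (red) library, 1 point per library; an open triangle marks 0 fragments, drawn at the level of 3 fragments. Tbx15 sits near 100 CPM in both libraries, whereas Tbx5 and Hand2 have a level in the p65-/- library only.

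Rela, the gene that tells the genotypes apart, was at 90.5 normalised CPM in the p65+/+ and 13.1 in the p65-/- library, 6.90-fold lower (5.98 to 8.05). The libraries also differed in sex-linked RNA: Xist had 956 and 2 fragments, and the Y-linked Kdm5d 0 and 207. Of 12 fibroblast markers 11 were found, with 10 at or above 1 CPM in the p65+/+ and 11 in the p65-/- library, their sums being 12115 and 24758 CPM. The collagen genes Col1a1 and Col1a2 made up much of both sums, whereas Thy1 went the other way, at 82.9 and 9.64 CPM, and Dcn (104.4 and 64.8 CPM) and Pdgfrb (199.4 and 150.1 CPM) were also lower in the p65-/- library. Summed levels of other markers were low for epithelium (0.118 and 2.81 CPM, Epcam and Cdh1 at 0 in the p65+/+), endothelium (3.40 and 2.24 CPM, mostly Kdr), leukocytes (3.68 and 5.64 CPM) and skeletal muscle (0.283 and 1.22 CPM). Cartilage markers summed to 67.8 and 147 CPM. Of these Col2a1 was at 31.1 and 128.8 CPM, while Sox9 (22.5 and 17.8 CPM) and Acan (14.1 and 0.330 CPM) were lower in the p65-/- library. Neural and glial markers summed to 402 and 85.3 CPM, mainly the intermediate filament gene Nes. Tubb3 (76.4 and 26.4 CPM) was also lower in the p65-/- library, whereas Stmn2 (2.36 and 9.37 CPM) was higher. The other neural and glial markers found were under 1 CPM in both libraries. The part of sex, cartilage or neural markers in the differences below was not tested. In bulk RNA, fewer cells expressing a gene and less RNA per cell cannot be told apart.

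Tbx5 (transcript NM_011537, chromosome 5, 119796514 to 119885220, GRCm38) stood at a deposited value of 0 in the p65+/+ and 302 in the p65-/- library. That is 0 fragments against 257.5, or 0 against 17.0 normalised CPM. The p65+/+ library gives no sign of the transcript at its depth, where the floor of 3 fragments set for a count of 0 is 0.142 CPM. Set against that floor of 3 fragments, Tbx5 was 120-fold higher in the p65-/- library, a log2 ratio of 6.91 taken as its bound. The exact counting interval began lower, at 97.2-fold, a log2 ratio of 6.60. With every count under 3 fragments set to 3, the bound of 6.91 held rank 22 from the top among the 12135 measured genes. Tbx5 held rank 5 by p65-/- level among the 1023 transcripts listed at 0 in the p65+/+ library. Non-coding genes lie inside Tbx5 in the annotation (Gm5563 in RefSeq, 1700021F13Rik and Gm43050 on the opposite strand in GENCODE M21). The sources used here do not give whether strand was used in counting, so reads of such overlapping genes cannot be told apart.

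Tbx4 (NM_011536, chromosome 11, 85886367 to 85916097), the hindlimb counterpart of Tbx5, had 0 fragments in the p65+/+ and 1 fragment in the p65-/- library, deposited as 0 and 1.17. Both are at or under the floor of 3 fragments, and no fold is given. Tbx4 was therefore not detectable as different at this depth, while its relative Tbx5 had 257.5 fragments in the p65-/- library. The transcripts of Tbx4 and Tbx5 shared 5 stretches of 20 bases and 0 of 31 bases, as counted in the GENCODE M21 sequences. Among the 78 pairs of 13 T-box transcripts, 2 pairs shared any stretch of 31 bases, Tbx15 with Tbx20 and Tbx4 with Tbx20.

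Tbx3 (NM_198052, chromosome 5, 119670534 to 119684724) is the T-box repressor that lies next to Tbx5, with a gap of 112 kb. Its deposited values were 437 and 310.4, or 23.6 normalised CPM in the p65+/+ and 17.5 in the p65-/- library. The ratio was 1.35-fold lower in the p65-/- library (1.17 to 1.58), a small difference against that of its neighbour. These adjacent genes thus had ratios on opposite sides of 0. The antisense gene Tbx3os1 overlaps the start of Tbx3.

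Tbx2 (NM_009324, chromosome 11, 85832615 to 85841948), a close relative of Tbx3, was scarce: 5 fragments in the p65+/+ and 26.5 in the p65-/- library. In normalised CPM this was 0.236 and 1.75, a 7.42-fold difference with a wide interval (2.75 to 24.3). Its mean of 0.993 CPM fell just under the minimum of 1 CPM, so that it is not among the measured genes, whereas Hand2, the measured member with the lowest mean, was at 1.25 CPM. Tbx2 lies 44.4 kb from Tbx4, a gene at or near 0 in both libraries.

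Tbx15 (NM_009323, chromosome 3, 99240348 to 99354260) was the most abundant member in both libraries. Its deposited values were 1864 and 1783, or 101 normalised CPM in the p65+/+ and 100.3 in the p65-/- library. The log2 ratio of -0.01 had an interval from -0.10 to 0.09, so that counting error alone allows a difference of at most 1.07-fold in either direction. Tbx18 (NM_023814, chromosome 9, 87702800 to 87731260), a close relative, was at 9.84 and 14.4 normalised CPM, deposited as 182 and 256. Tbx18 was 1.46-fold higher in the p65-/- library (1.21 to 1.78), with D030062O11Rik on the opposite strand over its start.

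Hand2 (NM_010402, chromosome 8, 57320983 to 57324517) had deposited values of 0 and 44.6, that is 0 fragments in the p65+/+ and 38 in the p65-/- library. Its p65-/- level was 2.51 normalised CPM. Against the floor of 3 fragments it was 17.7-fold higher, a log2 ratio of 4.15 taken as its bound. The exact counting interval began lower, at 13.7-fold, a log2 ratio of 3.78. With counts under 3 set to 3 in all genes, the bound of 4.15 held rank 145 from the top among measured genes. Hand2 held rank 34 by p65-/- level among transcripts at 0 in the p65+/+. The antisense gene Hand2os1 covers 3251 bases of Hand2, and its reads cannot be told apart from those of Hand2.

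Shox2 (NM_001302357, chromosome 3, 66971723 to 66981771) was at deposited values of 142 and 137, from 163 and 117 fragments. In normalised CPM the libraries were at 7.69 and 7.72, a log2 ratio of 0.01 (-0.35 to 0.36). The interval holds differences of up to 1.28-fold, so equal levels are not shown beyond that. Rsrc1, a splicing-related gene on the opposite strand, overlaps the start of Shox2 over 408 bases in RefSeq. Rsrc1 was at 27.5 and 28.5 CPM, a log2 ratio of 0.05.

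**Figure D2:**
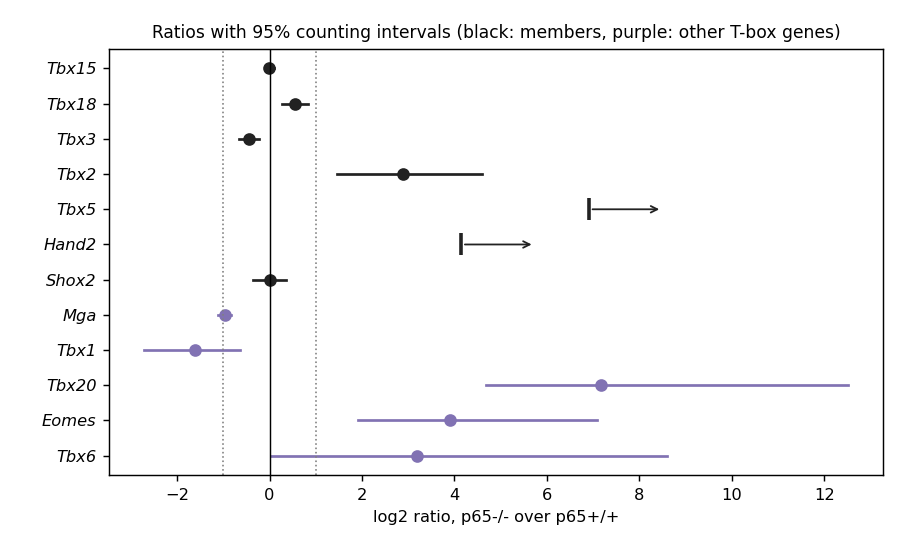
Log2 ratio of p65-/- over p65+/+ normalised CPM (x axis) for 7 members (black) and 5 other T-box genes (purple), with bars for 95% counting intervals, arrows for lower bounds and dotted lines at 2-fold. Intervals of Tbx15 and Shox2 span 0, those of Tbx3 and Tbx18 stay within 2-fold, and Tbx2, Hand2 and Tbx5 lie to the right of 2-fold.

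Compared per transcript length, in CPM per kilobase, the members differed widely in level. In the p65+/+ library the order was Tbx15 at 28.3, Tbx3 at 4.95, Shox2 at 2.50, Tbx18 at 2.10 and Tbx2 at 0.0651, with Tbx5, Hand2 and Tbx4 at 0. Shox2 (2.13 to 2.91) and Tbx18 (1.82 to 2.402) overlapped in their counting intervals there. In the p65-/- library Tbx15 came again at the top, at 28.1, followed by Tbx5 at 4.31, Tbx3 at 3.66, Tbx18 at 3.08, Shox2 at 2.51, Hand2 at 1.07, Tbx2 at 0.482 and Tbx4 at 0.0219. Here the intervals of Tbx5 (3.81 to 4.88) and Tbx3 (3.22 to 4.12) overlapped, as did those of Tbx3 and Tbx18 (2.68 to 3.51) and of Tbx18 and Shox2 (2.07 to 3.01). Tbx15 lay at percentile 77.3 and 78.0 of measured genes, and Tbx5 at percentile 32.6 in the p65-/- library, so the latter was a gene of modest level.

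Among the 6 T-box members, the makeup of RNA differed between the libraries, mainly by Tbx5. Other T-box genes are not in these shares. Mga was at 72.9 CPM in the p65+/+ and 37.2 in the p65-/- library, and Tbx20 at 0.0472 and 6.83. Of the 2853.5 p65+/+ fragments from the 6 T-box members, Tbx15 took 74.96% (exact binomial interval 73.3 to 76.5), Tbx3 17.6% and Tbx18 7.31%. Of the 2287 fragments in the p65-/- library, Tbx15 took 66.4% (64.5 to 68.4), Tbx3 11.6%, Tbx5 11.3% (10.01 to 12.6) and Tbx18 9.53%. The 6 genes summed to 135 and 151 normalised CPM.

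Regulatory sequence is shown for members with an entry in the RefSeq promoter table (GRCm38.p6): Hand2, at 0 in the p65+/+, Shox2 and Tbx18, present in both libraries, and Tbx4, at or near 0 in both. Each is the 250 bases before an annotated start, 5′ to 3′ on the gene's strand. The windows are chr8:57320733-57320982 (plus strand), chr3:66981772-66982021 (minus strand), chr9:87731261-87731510 (minus strand) and, inside the annotated Tbx4 gene, chr11:85896515-85896764 (plus strand). Capitals mark a loose pattern used to search for NF-kB type sites, GGG and CC with 5 bases of any kind between them, on both strands. All 4 matches lie on the opposite strand and so read GG, 5 bases and CCC here. The pattern sets no limit on the 5 middle bases, so a match does not show an NF-kB site. Binding of p65 to these windows was not tested.
Hand2: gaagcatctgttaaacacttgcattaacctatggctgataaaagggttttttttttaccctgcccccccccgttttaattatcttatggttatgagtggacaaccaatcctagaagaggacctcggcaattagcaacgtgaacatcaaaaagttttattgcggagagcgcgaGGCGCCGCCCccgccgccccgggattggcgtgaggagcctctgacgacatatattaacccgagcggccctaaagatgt
Shox2: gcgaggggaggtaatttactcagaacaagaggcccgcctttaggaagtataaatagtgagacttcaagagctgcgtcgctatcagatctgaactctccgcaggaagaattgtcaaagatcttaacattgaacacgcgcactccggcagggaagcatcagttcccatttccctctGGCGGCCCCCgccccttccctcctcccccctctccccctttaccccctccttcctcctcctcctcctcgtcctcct
Tbx18: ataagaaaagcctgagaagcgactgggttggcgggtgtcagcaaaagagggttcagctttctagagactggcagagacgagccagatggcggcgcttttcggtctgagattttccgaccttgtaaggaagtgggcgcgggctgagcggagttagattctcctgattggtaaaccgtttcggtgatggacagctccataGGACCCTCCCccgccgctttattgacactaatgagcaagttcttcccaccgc
Tbx4: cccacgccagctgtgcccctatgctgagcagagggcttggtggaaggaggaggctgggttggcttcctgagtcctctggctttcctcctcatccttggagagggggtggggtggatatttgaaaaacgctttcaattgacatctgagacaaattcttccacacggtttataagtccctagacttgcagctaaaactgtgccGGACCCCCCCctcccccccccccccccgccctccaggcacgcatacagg
Each window held 1 match, beginning 78, 76, 52 and 49 bases before the start in that order, and 45.8% of all 32851 promoter windows of this length held at least 1. The match was thus present in the window of Hand2, 17.7-fold higher against the floor in the p65-/- library, and in that of Shox2, at a log2 ratio of 0.01. Also searched on both strands, the letters TATAAA were found in the Shox2 window and, on the opposite strand, in the Tbx4 window (12.4% of all windows), and the T-box type motif GGTGTGA in 0 of the 4 (3.33% of all windows). The Hand2 and Tbx18 windows each held 15 CpG dinucleotides, more than 72.7% of promoters, against 11 for Shox2 and 6 for Tbx4.

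The counts of measured genes around Tbx5, Hand2 and Tbx2 are small and given as a description. Over all measured genes 12.2% were at least 2-fold higher and 13.7% lower. After correction for GC content and length of transcripts these shares were 11.6% and 8.81%. Within 1 Mb of Tbx5, 9 genes were measured, with a median log2 ratio of -0.83. Of these, Oas1c, an interferon-inducible gene 915 kb away with 0 p65+/+ fragments, was the single gene at least 2-fold higher, and 0 were 2-fold lower. Rbm19, the nearest measured gene on the other side from Tbx3, was at -0.96, and Med13l, the nearest beyond Tbx3, at -0.63. Corrected for GC content and length of transcripts, 5 of the 9 genes were at least 2-fold lower, Rbm19 (-1.24) among them, and 1 higher.

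Around Hand2, 5 genes were measured, 0 of them at least 2-fold higher and 1, Galnt7, lower (-1.55). The nearest on either side, Fbxo8 and Sap30, were at -0.03 and -0.69. The correction turned these counts round: 1 gene, Cep44, was then higher (1.04, from 0.79) and 0 lower, with Galnt7 at -0.82. Around Tbx2, 20 genes were measured, 0 at least 2-fold higher and 2 lower, Usp32 and Med13, both at -1.16. After the correction these stood at -0.53 and -0.06, and Ptrh2 went from 0.40 to 1.01, so that 1 of 19 genes was higher and 0 lower. The nearest to Tbx2 were Bcas3, 6.56 kb away, at 0.96 (0.70 to 1.21), or 1.07 under upper quartile scaling, and Brip1, beyond Tbx4, at -0.31.

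Around Tbx15, Wars2 and Spag17 were the nearest, at -0.16 and -0.88. Of the 9 genes measured around Tbx18, 6 were further from equal levels than Tbx18 and 3 nearer. The nearest were Cep162 at -0.51 and Nt5e, which encodes the ecto-enzyme CD73, at -3.65 (-4.99 to -2.56) and 596 kb away. All 6 genes measured around Shox2 were further from equal levels than Shox2, whose ratio was 0.01. So near 0 this holds of almost any gene, and the interval of Shox2 (-0.35 to 0.36) also held Rsrc1, at 0.05. Apart from the overlapping Rsrc1, the nearest were Ptx3 at 1.45 and Gfm1 at -0.79, and Lxn was at 2.07.

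**Figure D3:**
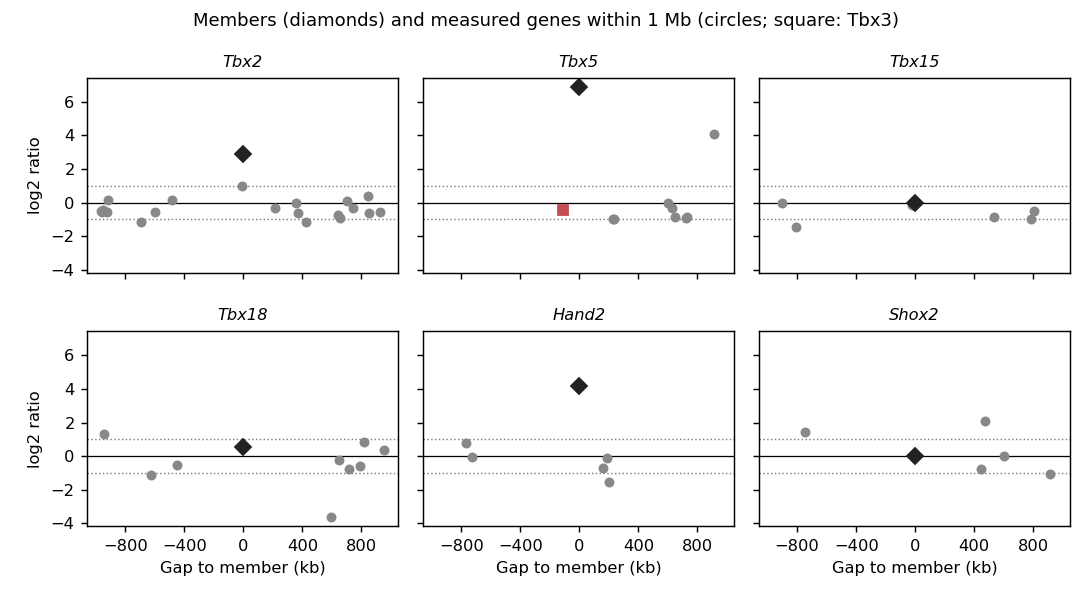
Log2 ratio (y axis) of each member (diamond, at 0 kb) and of measured genes within 1 Mb (circles; the square is Tbx3), by the gap to the member in kb; dotted lines mark 2-fold, and the diamonds of Tbx5 and Hand2 are lower bounds. Tbx5, Hand2 and Tbx2 stand above each neighbour drawn, Oas1c at 915 kb from Tbx5 being the highest of these, and Rsrc1 lies under the Shox2 diamond.

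Of 12 symbols looked up for the rest of the T-box family, 7 transcripts were found and 3 measured. Tbx20, a factor of heart development, was at 0.0472 normalised CPM in the p65+/+ (1 fragment) and 6.83 in the p65-/- library (103.5 fragments), a log2 ratio of 7.18 (4.68 to 12.50), or 8.04 once corrected for GC content and length. That ratio is taken over 1 fragment. Against the floor of 3 fragments used for Tbx5 it is 5.59, below the 6.91 of Tbx5. Tbx1, known for the pharyngeal arches, was 3.05-fold lower (1.56 to 6.53), at 2.22 and 0.726 CPM. Mga, a large T-box and Max-binding protein, was at 72.9 and 37.2 CPM, a log2 ratio of -0.97, or -0.01 once corrected in the same way. Under the minimum, Eomes had 2 and 21.5 fragments and Tbx6 1 and 6.5, while Tbx10 and Tbx21 had 0 p65+/+ and 1.5 and 1 p65-/- fragments. Pitx3, a relative of Pitx1, had 1 and 0 fragments. The cardiac markers summed to 33.3 CPM in the p65+/+, mainly Tnnt2, and 3.04 CPM in the p65-/- library, with Myh6, Myh7, Tnni3 and Ryr2 at 0 in the p65+/+ and none of the 8 found at 1 CPM in the p65-/- library.

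Measured signals of limb patterning that passed 2-fold were lower in the p65-/- library. Of 16 ligands and antagonists looked up, 10 were found and 6 measured, 4 of them lower by 2-fold or more (66.7%) and 0 higher. Over all measured genes 13.7% were lower and 12.2% higher. The median log2 ratio of the 6 was -2.23 against -0.03 over all measured genes. These are counts of few genes, given as a description, and Gdf5 was under 1 CPM (0.495) in the p65-/- library. Fgf10, the mesenchymal signal that Tbx4 and Tbx5 are known to act upstream of in the limb bud, was at 13.9 CPM in the p65+/+ and 1.16 in the p65-/- library. It was 12.03-fold lower (7.26 to 19.97), a log2 ratio of -3.59, or -2.79 once corrected for GC content and length, in the library where Tbx5 was present. Gdf5, a joint-forming ligand, was 9.53-fold lower (4.36 to 21.3), the BMP antagonist Nog 5.74-fold (3.39 to 10.3) and Wnt5a, a ligand of limb outgrowth, 3.85-fold (3.34 to 4.46). Grem1, a BMP antagonist, and Bmp4 lay within 2-fold at -0.53 and 0.45. Bmp2, under the minimum, had 0 and 16 fragments.

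Of the receptors and transducers of the same signals, all 14 were found and 13 measured, 2 at least 2-fold higher (15.4%), 2 lower (15.4%) and 9 within 2-fold (69.2%), with a median of 0.17. These shares are near those over all measured genes, which were 12.2%, 13.7% and 74.1%. In the p65-/- library Gli1 and Gli2, which carry Hedgehog signals to the nucleus, stood 4.69-fold (2.30 to 10.8) and 2.998-fold (2.61 to 3.46) above the p65+/+ level. Gli1 rested on 10 and 33.5 fragments and was under 1 CPM (0.472) in the p65+/+ library, while Gli2 had 291 and 623.5 fragments. The Hedgehog receptor gene Ptch1 was at -0.39. Bmpr1b, a BMP receptor, was 7.42-fold lower (4.42 to 14.3) and Rarb, a retinoic acid receptor, 8.42-fold lower (3.49 to 36.03).

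Among other limb transcription factors, 25 of 34 were found and 20 measured, of which 7 were at least 2-fold higher, 1 lower and 12 within 2-fold, with a median of 0.25. That is 35% higher and 5% lower, where the shares over all measured genes were 12.2% and 13.7%. Of the 7, 5 (Sall1, Tfap2a, Lhx2, Msx1 and En1) were under 1 CPM in the p65+/+ library and were measured through the p65-/- library alone, as were Tbx5 and Hand2. Over all genes this was so of 396 of the 1475 higher ones, and the count of 7 of 20 is a description that supports nothing. Sall1, a zinc finger factor, Tfap2a and the LIM homeobox gene Lhx2 were at 0 in the p65+/+ library. Against the floor they were 88.6-, 31.95- and 17.03-fold higher, with counting intervals that began at 71.4-, 25.1- and 12.97-fold. Msx1 had 1 p65+/+ fragment and 260 p65-/- fragments, a log2 ratio of 8.51 (6.02 to 13.82) over that 1 fragment, or 6.92 against the floor of 3 fragments used for the genes at 0. En1, which marks ventral limb ectoderm in the embryo, was at 0.826 and 44.9 CPM, 54.4-fold higher (33.2 to 89.7). Prrx1, a broad marker of limb mesenchyme, was at 56.2 and 142 CPM, 2.52-fold higher (2.35 to 2.71), and Irx3 was 2.49-fold higher (1.74 to 3.55). Their log2 ratios were 1.33 and 1.32. Scaled to ribosomal protein genes, Prrx1 and Irx3 came to 0.93 and 0.91, within 2-fold, while the GC and length correction gave 2.12 for Prrx1 and 0.86 for Irx3. Etv4, a target of FGF signalling, was the single lower one, at 3.19-fold (2.87 to 3.55). Twist1, Twist2, Pbx2, Meis2, Etv5, Irx5 and Lhx9 lay between -0.40 and 0.33, and Msx2, Meis1, Emx2 and Prrx2 at -0.97, -0.77, -0.75 and 0.75. Over the 3 limb lists together, 9 of 39 measured genes (23.1%) passed 2-fold towards higher and 7 (17.9%) towards lower levels, and the median was -0.05. Of the 9 higher genes 6 were under 1 CPM in the p65+/+ library, and of the 7 lower genes 3 (Gdf5, Bmpr1b and Rarb) were under it in the p65-/- library.

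**Figure D4:**
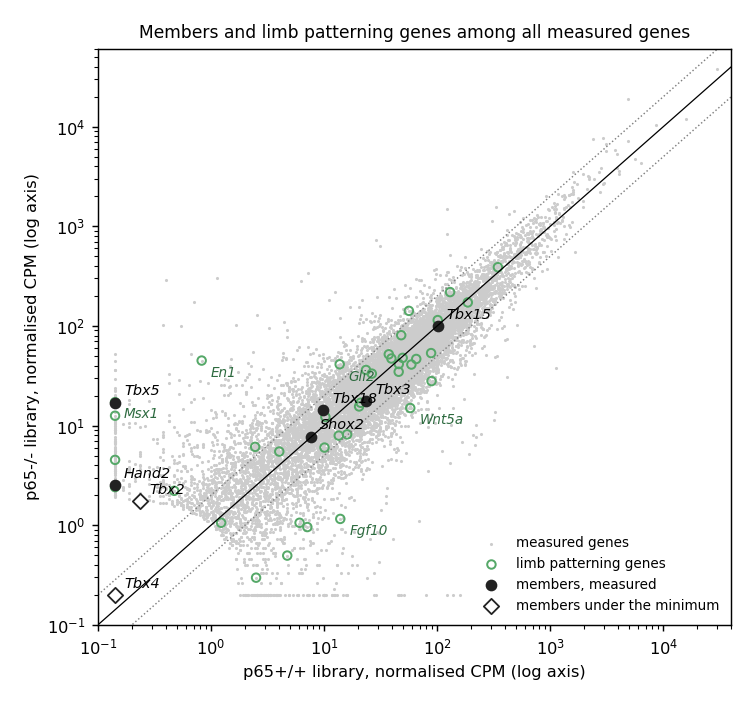
Normalised CPM in the p65+/+ (x) and p65-/- (y) library, both on log axes, for all 12135 measured genes (grey), 39 limb patterning genes (green rings), the 6 measured members (black) and the 2 under the minimum (diamonds); values under 3 fragments are drawn at 3 fragments, the line marks equality and dotted lines 2-fold. Tbx15, Tbx3, Tbx18 and Shox2 lie within the dotted lines and Tbx5 and Hand2 stand at the left edge.

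Genes described as targets of the members did not follow 1 direction. Of 12 looked up, 10 were found and 7 measured, 1 at least 2-fold higher (14.3%) and 3 lower (42.9%). Over all measured genes 12.2% were higher and 13.7% lower. Of the 3 lower genes 2, Cdkn2a and Nkx2-5, were at 0.198 CPM in the p65-/- library and were measured through the p65+/+ library alone. Over all genes 302 of the 1667 lower ones were under 1 CPM in the p65-/- library, and the count of 3 of 7 is a description. Cdkn1a and Cdkn2a, cell cycle inhibitor genes that Tbx2 and Tbx3 are known to repress, went opposite ways. Cdkn1a was 7.46-fold higher (5.90 to 9.65). Cdkn2a had 1693.5 p65+/+ and 3 p65-/- fragments, a log2 ratio of -8.66 (-10.94 to -7.11). RNA levels do not give the number of gene copies, and whether the members acted on either gene was not tested. Besides Fgf10, the cardiac homeobox gene Nkx2-5 was lower, with 64.5 and 3 fragments and a log2 ratio of -3.94 (-6.25 to -2.32), or -4.54 once corrected for GC content and length. Runx2, a bone factor, was at -0.10. The cardiac targets Nppa and Gja5 had at most 4 fragments in either library.

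By distance between log2 levels over the 2 libraries, the genes nearest to Tbx5 were the peptide transporter gene Tap2 (0.0056) and Wnt10b (0.011), and those nearest to Hand2 were She (0.00) and Gpnmb (0.019). Nearest to Tbx15 were Fads2 and Brk1, to Tbx3 Tgif2 and St7, to Tbx18 Tmem88 and Cry2, and to Shox2 Fra10ac1 and Mir5046. With 2 libraries such likeness rests on 2 values per gene.

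The members within 2-fold stayed there under each processing choice tried. Tbx15 and Shox2 changed sign between choices, Tbx15 running from -0.41 to 0.14 and Shox2 from -0.40 to 0.12. Tbx3 stayed below 0 (-0.84 to -0.32) and Tbx18 above 0 (0.14 to 0.86) in the 9 settings that gave them a value. The bounds of Tbx5 and Hand2 and the ratio of Tbx2 were above 2-fold in each setting that gave them a value, at 6.48 or more, 3.72 or more and 2.48 or more.

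**Figure D5:**
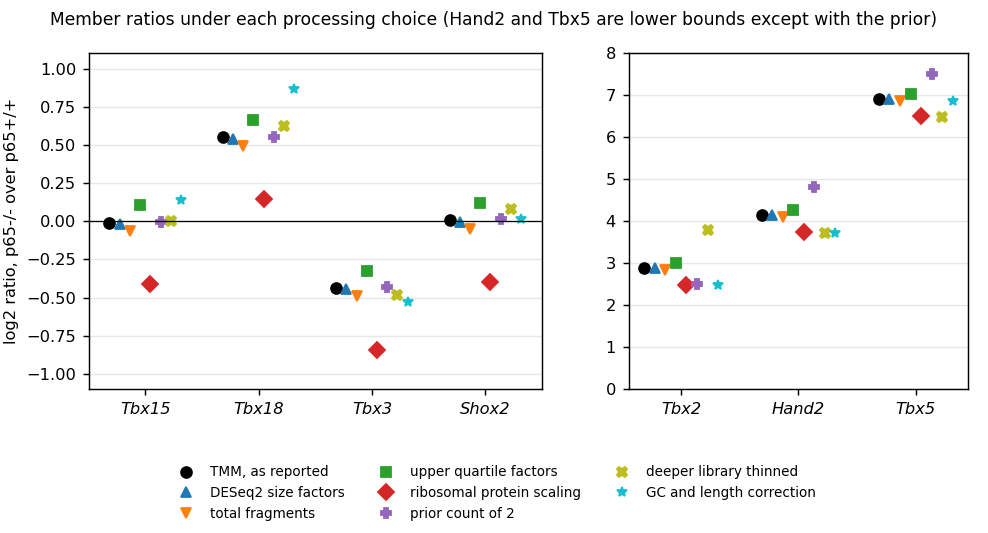
Log2 ratio (y axis) of 7 members under the reported scaling (black) and 7 other processing choices (coloured symbols), with separate y axes for the members within 2-fold (left) and past it (right). Scaling to ribosomal protein genes gives the lowest value for Tbx15, Tbx18, Tbx3 and Shox2, and Tbx5 stays above 6 throughout.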

How the data were processed

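RNA was measured in 1 p65+/+ and 1 p65-/- library, and each column of the table was assigned to the library it names. Per the submitters' processing notes, the tools included STAR 2.4, bcl2fastq 2.16, edgeR and HOMER, and the build was mm10, with no roles stated. The sources used here do not give the counting rule, strand, annotation or filters. The deposited values are a scaled signal, not raw counts: both columns sum to about the same total (18117934 and 18117930). All 13928 p65+/+ and 13994 p65-/- values from above 0 to 2000 units were whole multiples of 1 step (100%, tolerance 0.0055), 2 steps being taken as 1 fragment, so that fragment counts can hold 0.5. Counts were rounded for intervals. No count test was run, because 2 libraries of 2 genotypes leave no degree of freedom for error. Transcripts were matched through RefSeq (16743), otherwise GENCODE M21 (83), and 55 stayed unmatched.

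Libraries were scaled with TMM factors (trimmed mean of M values; edgeR 4.0.16, R 4.3.3), with factors of 1.02 and 0.981. Genes averaging 1 CPM or more were called measured. A count of 0 was set to 3 fragments. Bounds, in text and figures, are ratios to that floor and lie above the lower ends of the counting intervals. For ranks at the floor and for distances between levels, every count under 3 was set to 3. Intervals are exact Clopper-Pearson intervals at 95%, those of levels per length exact Poisson intervals, and all cover counting error only. On simulated counts of this comparison (12134 genes), the true ratio lay inside the interval for 95.4% of unchanged, 94.0% of 2-fold, 98.0% of 4-fold and 96.0% of 8-fold genes. Of the true 2-fold genes 53.0% passed the 2-fold cut, and of the 4-fold and 8-fold genes 100%. These counts held Poisson error only, which the intervals assume. They check the calculation and not the spread between cultures. DESeq2 1.42.0 size factors and other scalings, minimums, a prior count, thinning, and a loess correction for transcript GC content and length were tried as alternatives.

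The members, gene lists and rules were chosen with earlier results of these data known. The text names every member, each measured list gene past 2-fold, the nearest measured genes on either side, and the 2 genes closest in level. Oas1c, Lxn, Galnt7, Cep44, Usp32, Med13, Ptrh2, Xist, Kdm5d and the list genes named within 2-fold or under the minimum were chosen after their values were seen. Some list genes within 2-fold are not reported here.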

Additional observations from a re-analysis of the deposited data

How the results depend on the processing

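Scaling to ribosomal protein genes moved the median of all measured genes from -0.03 to -0.44, and, of the genes 2-fold apart, the part that was higher went from 46.9% to 23.0%. Under it the log2 ratios were -0.84 for Tbx3, -0.41 for Tbx15, 0.14 for Tbx18 and -0.40 for Shox2. The bounds were 6.50 for Tbx5 and 3.74 for Hand2. With this scaling 11 rather than 7 limb patterning genes were at least 2-fold lower, the added ones being Bmpr1a, Msx2, Meis1 and Emx2. Upper quartile factors put Tbx15 at 0.10. Thinning the p65+/+ library gave bounds of 6.48 for Tbx5 and 3.72 for Hand2, since the floor then weighs more. The GC and length correction gave 0.14 for Tbx15, 0.86 for Tbx18 and 3.73 for Hand2. The members at least 2-fold higher rose from 2 to 3 under upper quartile factors and with no minimum, Tbx2 being added. With a minimum of 5 CPM, 1 member (Tbx5) was at least 2-fold higher, and 5 limb patterning genes were higher and 3 lower, fewer genes being tested. With no minimum, 15 limb patterning genes were higher. The cause of the other changes was not tested. The median of the limb patterning genes stayed between -0.46 and 0.25. No paired analysis was possible because each genotype had 1 library. For the same reason no library could be left out. Depth limits Tbx2, Tbx4 and Hand2 most, with at most 38 fragments in either library.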
